A study of Mus musculus with 18 samples.

Results

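The DNA replication genes followed here were a list of 37 genes that act at replication origins, at the replication fork, as DNA polymerases or in nucleotide supply. They were found by symbol among the 47729 genes of the count table, and genes of mitosis were left out. All 37 were present, and all passed the filter on low counts, which left 16937 genes for testing. RNA-seq had been done on colon tissue, labelled only as colon by GEO and described as distal colon for recovery in the study's text, of WT mice and of *Cldn2*KO mice, which carry a knockout of the gene for the tight junction protein claudin-2. Some mice were untreated (control). Others were in recovery from colitis after drinking dextran sulfate sodium (DSS), which damages the lining of the colon. The rest had received azoxymethane, a carcinogen, followed by DSS, which gives tumours in inflamed colon (AOM/DSS). Genotype and condition made 6 groups of 3 libraries. The AOM/DSS mice had 1 dose of AOM (10 mg per kg body weight) and 3 cycles of 2.5% DSS. The mice had a C57BL/6 background, and the methods describe littermates matched for age and sex. *Xist*, the RNA of the inactive X chromosome in females, was however unevenly divided among the libraries used here, as given below. Ages in weeks, the DSS dose of the recovery mice and the length of recovery were not given in the sources used here, and the knockout was not limited by the labels to a cell type. The labels do not say whether the libraries of a group came from separate mice, so the p-values measure only the spread between these libraries. Replicate numbers of the recovery and AOM/DSS libraries are names only.

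Replication begins when the origin recognition complex, with CDC6 and CDT1, loads the MCM2-7 helicase onto DNA. CDC45, the GINS complex and MCM10 turn the loaded helicase into an active fork, polymerase alpha-primase lays primers, and polymerases delta and epsilon extend them while held by the ring-shaped clamp PCNA. In the intestine, this machinery is made mainly by the dividing cells of the crypt base, which renew the epithelium, and many of its genes are known targets of the E2F transcription factors at the entry into S phase. Lymphoid and stromal cells that divide use the same genes. In bulk tissue, fewer dividing cells and less replication RNA per cell cannot be told apart.

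Depth was 17.6 to 27.4 M reads per library, and levels below are in CPM, the reads of a gene scaled to the size of its library after TMM normalization. *Cldn2* stood at 44.5 to 504 CPM in the WT libraries and at 0.0555 to 0.557 CPM in the *Cldn2*KO libraries. Some libraries stood apart. The posterior Hox genes, which mark the distal colon, summed to 497 to 866 CPM in 11 libraries and to 4 CPM or less in WT control replicate 2 and in all 6 recovery libraries, with *Hoxd12* at 0 reads in each of these 7, so the recovery libraries lacked the defining markers of the distal colon they are described as. Those 7 libraries also held more of the proximal colon gene *Car1* than the others, at 8171 to 45440 CPM against 102 to 4318 CPM. Recovery against control therefore also compared libraries without and with posterior Hox RNA, apart from WT control replicate 2, and the part of this in the results was not tested beyond the values given beside them. *Xist* exceeded 10 CPM in replicates 2 and 3 of the WT recovery, *Cldn2*KO recovery and *Cldn2*KO AOM/DSS groups, and in no other library, so the genotypes were not balanced for it in AOM/DSS (2 of 3 *Cldn2*KO libraries and 0 of 3 WT libraries). The libraries that stood apart in the replication genes themselves are described next.

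The replication genes moved together from library to library, and the largest departures were those of single libraries. As a measure, the median over the 37 genes of the log2 difference from each gene's mean over all libraries was taken. It was −1.07 in *Cldn2*KO recovery replicate 1 and −0.83 in replicate 2, but 0.19 in replicate 3. In the first pair, 1 of 37 genes in each library lay above its own mean, and in replicate 3, 29 of 37 did. The group was therefore split within itself, and replicate 3 was the highest of the 3 libraries for 35 of the 37 genes. WT control replicate 2 was low as well, at −0.64 with 3 of 37 genes above their mean, while the other WT controls stood at 0.12 and 0.05. At the other end, WT AOM/DSS replicate 3 stood at 0.80 with all 37 genes above their mean, and it was the highest of all 18 libraries for 19 genes. WT recovery replicate 1 followed at 0.59 and was the highest library for 8 genes.

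**Figure D1:**
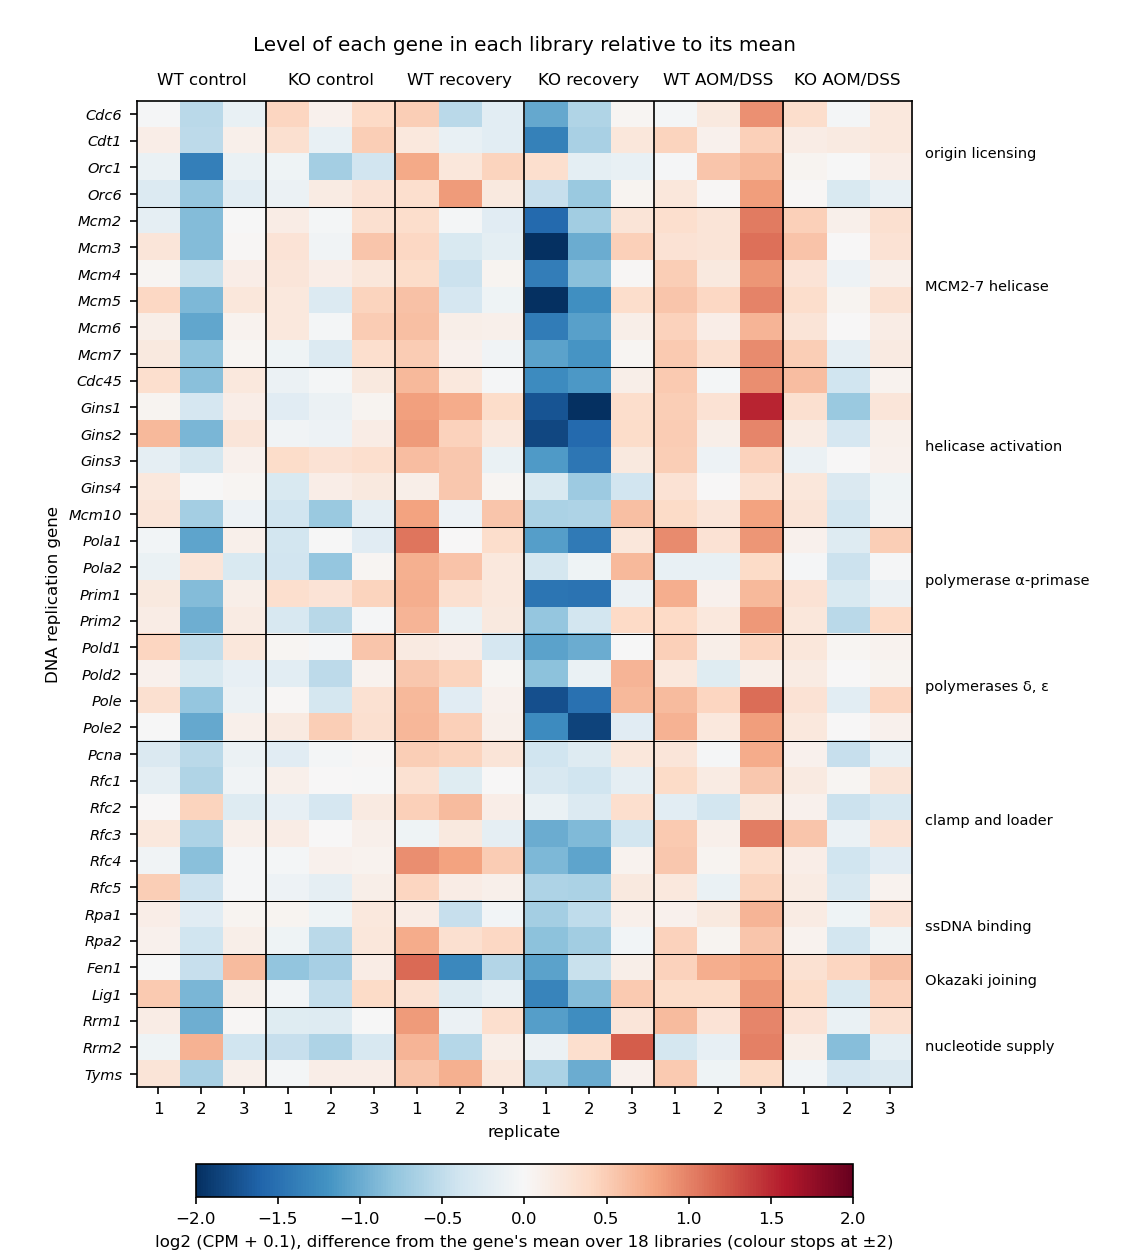
Heat map of the 37 DNA replication genes (rows, grouped by role) in the 18 libraries (columns, by group and replicate), coloured by the log2 difference in CPM from each gene's own mean. The blue columns are *Cldn2*KO recovery replicates 1 and 2 and WT control replicate 2, the reddest is WT AOM/DSS replicate 3, and *Rrm2* is red in WT control replicate 2, where most rows are blue.

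By group mean, WT AOM/DSS was highest for 24 genes, WT recovery for 12 and *Cldn2*KO recovery for 1, and *Cldn2*KO recovery was lowest for 28. Summed over the 37 genes, the level was 846 ± 185 CPM in WT controls and 931 ± 106 CPM in *Cldn2*KO controls (SD, n = 3 for each group here and below). It was 1126 ± 182 CPM in WT recovery and 718 ± 305 CPM in *Cldn2*KO recovery. In AOM/DSS, it was 1249 ± 277 CPM in WT and 955 ± 142 CPM in *Cldn2*KO mice. The libraries behind the *Cldn2*KO recovery mean were at 521, 563 and 1069 CPM, so replicate 3 lay within the range of the WT recovery libraries (999 to 1335 CPM). In order of mean, the groups ran WT AOM/DSS, WT recovery, *Cldn2*KO AOM/DSS, *Cldn2*KO control, WT control and *Cldn2*KO recovery, and the libraries of each group overlapped those of the next.

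To compare levels between genes, CPM was divided by gene length (CPM per kb, mean of 18 libraries). *Pcna*, the sliding clamp, was the most abundant at 48.8 CPM per kb, followed by *Rrm1*, the large subunit of ribonucleotide reductase, at 19.8 CPM per kb. The highest of the other role groups were *Gins4* of the GINS complex (15.95 CPM per kb), *Orc6* of the origin recognition complex (13.1), *Mcm6* of the helicase (12.7), *Pold2*, the second subunit of polymerase delta (11.5), *Rpa1*, which coats single-stranded DNA (6.83), *Pola2*, the accessory subunit of polymerase alpha (6.0), and *Lig1*, the ligase that joins Okazaki fragments (5.33). Subunits of a complex that act in equal numbers did not have equal RNA levels. The 6 MCM2-7 genes ran from 4.09 CPM per kb for *Mcm2* to 12.7 for *Mcm6*, and the GINS genes from 1.96 for *Gins3* to 15.95 for *Gins4*. *Fen1*, the flap endonuclease of Okazaki fragments, was measured poorly. It had 3 to 39 reads per library, against at least 24 for any other of the genes, and 78.8% of its exon bases overlap an antisense gene, so its values are uncertain.

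Other overlaps bear on single genes, since no source says whether reads were counted by strand. *Gins2* shares 67.3% of its exon bases with *Gse1* on the other strand, *Rfc2* 15.1% with *Lat2*, *Rfc4* 12.7% with the abundant gene *Eif4a2*, *Orc1* 10.8% with a noncoding transcript, *Rfc5* 10.7% with *Wsb2* and *Orc6* 10.3% with *Vps35*. *Pole2* shares 14.5% with an annotated transcript on its own strand. Counts of these 7 genes are uncertain to the extent that reads were assigned to the wrong partner. *Cdc45*, *Mcm7* and *Lig1* shared 9.28% or less. The genes are spread over 13 chromosomes, with 7 on chromosome 5 (*Mcm7*, *Pole*, *Rfc1*, *Rfc2*, *Rfc3*, *Rfc5* and *Tyms*) and 6 on chromosome 8 (*Mcm5*, *Cdt1*, *Gins2*, *Gins3*, *Gins4* and *Orc6*).

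In mice recovering from colitis, replication genes lay lower in the *Cldn2*KO than in the WT colon, and the difference was carried by 2 of the 3 *Cldn2*KO libraries. Of the 37 log2 fold changes, 36 were negative, the median was −0.65 (all genes tested, 0.00), and the range was from −1.43 for *Gins1* to 0.42 for *Rrm2*. Only *Rfc4*, a subunit of the clamp loader that opens PCNA onto DNA, passed the test at an adjusted p under 0.05 over all genes. This was 1 of 37 genes, or 2.70%, where 0.425% of all genes tested were called lower. At an unadjusted p under 0.05, 20 genes (54.1%) were lower and none higher, against 10.5% and 9.41% of all genes. The groups did not overlap for 10 of the 37 genes, or 27.0%, all lower in *Cldn2*KO mice, against 11.7% of all genes.

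*Rfc4* (ENSMUSG00000022881, GRCm38 chromosome 16, 23113943 to 23127737, minus strand) measured 31.9, 29.3 and 23.95 CPM in the WT libraries of recovery and 8.94, 8.03 and 17.7 CPM in the *Cldn2*KO libraries. Every *Cldn2*KO library lay below every WT library, and the log2 fold change was −1.30 (SE 0.28, adjusted p = 0.0418). Counts of *Rfc4* are uncertain for its overlap with *Eif4a2*. *Prim1*, the catalytic primase subunit, had levels of 31.1, 23.4 and 21.6 CPM with claudin-2 and of 6.75, 6.63 and 17.2 CPM without it. Its groups did not overlap either, but its log2 fold change of −1.32 (SE 0.35) had an adjusted p of 0.0667. *Pole2*, the second subunit of polymerase epsilon, stood at 12.05, 10.5 and 8.16 CPM against 3.11, 2.04 and 6.45 CPM, a log2 fold change of −1.41 with an adjusted p of 0.0633. *Gins1* showed the widest split, with 9.89, 9.33 and 7.22 CPM in the WT libraries and 1.61, 1.11 and 7.09 CPM in *Cldn2*KO recovery (log2 fold change −1.43, adjusted p = 0.151). *Cldn2*KO replicate 3 was just below the lowest WT library for this gene. *Pcna* was at 159, 155 and 135 CPM in the WT libraries and 86.3, 95.2 and 133 CPM in *Cldn2*KO recovery (log2 fold change −0.52, SE 0.21, adjusted p = 0.179). *Rpa2*, *Tyms*, *Gins4*, *Orc6* and *Rfc3* were the other genes without overlap, with log2 fold changes of −0.99, −0.95, −0.71, −0.83 and −0.71 and adjusted p of 0.0609, 0.0714, 0.0691, 0.0885 and 0.145.

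The most abundant genes of the other roles gave smaller or more scattered differences. *Mcm6* was at 84.7, 60.4 and 59.4 CPM in the WT libraries and 21.0, 26.2 and 60.4 CPM in the *Cldn2*KO ones, a log2 fold change of −0.93 (SE 0.35, adjusted p = 0.155) with *Cldn2*KO replicate 3 at the WT level. *Rrm1* stood at 131, 67.2 and 91.9 CPM against 33.9, 30.9 and 86.9 CPM, also −0.94 (SE 0.37, adjusted p = 0.174). *Gins4* measured 23.0, 31.1 and 21.9 CPM with claudin-2 and 17.3, 12.9 and 16.3 CPM without it, and its groups did not overlap. *Lig1* was at 26.3, 17.7 and 19.2 CPM in the WT libraries and 8.41, 11.6 and 30.6 CPM in the *Cldn2*KO ones (log2 fold change −0.32, SE 0.43). *Pold2* was at 30.6, 28.8 and 21.6 CPM against 11.9, 19.3 and 33.8 CPM (−0.32, SE 0.28). *Pola2* was at 27.3, 24.7 and 19.2 CPM against 13.1, 15.6 and 26.1 CPM (−0.38, SE 0.27), so for these 3 genes *Cldn2*KO replicate 3 was the highest or second of all 6 libraries. *Rpa1* was at 41.3, 27.2 and 35.9 CPM against 23.3, 26.2 and 40.1 CPM, and its groups overlapped (−0.22, SE 0.22). Among roles, the median log2 fold change ran from −0.47 for origin licensing and −0.49 for Okazaki fragment joining to −0.94 for nucleotide supply and −0.97 for helicase activation, and each role group had a negative median.

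The result depended on which *Cldn2*KO library was kept. Without *Cldn2*KO recovery replicate 3, 17 genes were called lower where 1.99% of all genes were, and the median log2 fold change was −1.11 with all 37 genes lower. The groups then did not overlap for 34 of 37 genes, against 18.2% of all genes that were lower without overlap, a share that is itself larger because only 2 *Cldn2*KO libraries remained. The called genes then included 3 of the 4 GINS genes, 4 of the 6 MCM2-7 genes (*Mcm4*, *Mcm5*, *Mcm6* and *Mcm7*), *Pola1*, *Prim1*, *Pold1*, *Pole*, *Pole2*, *Rfc4*, *Rpa2*, *Orc6*, *Rrm1* and *Tyms*, with log2 fold changes down to −2.70 for *Gins1*. Without any other single recovery library, none of the 37 genes was called, *Rfc4* included, where 0.0173% to 1.28% of all genes were called lower. The median was −0.40 without *Cldn2*KO recovery replicate 1, −0.52 without replicate 2 and −0.45 without WT recovery replicate 1, with 35 or 36 of 37 genes lower. With all libraries, DESeq2 called 8 genes lower (4.69% of all genes) and limma-voom, which gives outlying libraries less weight, called 21 (5.74% of all genes). A fit of only the 2 groups called 0 (0.144% of all genes). Posterior Hox RNA was near 0 in all 6 recovery libraries. *Xist* was low in replicate 1 and high in replicates 2 and 3 of both groups. With a term for it in the fit, none of the 37 genes was called (0.171% of all genes were called lower) and the median was −0.65. Epithelial markers summed to 10732, 16369 and 17104 CPM in *Cldn2*KO recovery and to 11215, 15345 and 10884 CPM in WT recovery, and the crypt stem and progenitor markers to 84, 58 and 183 CPM against 150, 143 and 133 CPM. The crypt list thus split the *Cldn2*KO libraries in the same way as the replication genes. The summed markers of T and NK cells and of B and plasma cells were lower in all 3 *Cldn2*KO libraries than in any WT recovery library, replicate 3 included. T and NK cell markers summed to 47.1, 44.7 and 32.0 CPM against 67.0, 216 and 71.3 CPM in WT recovery, with 11 of 11 markers lower and none called. B and plasma cell markers summed to 45.1, 46.8 and 45.5 CPM against 226, 302 and 186 CPM, with 9 of 10 lower and 1 called. Germinal centre B cell markers overlapped between the groups, at 22.7 to 40.1 CPM in *Cldn2*KO and 33.7 to 59.9 CPM in WT recovery, with 4 of 6 lower. Of the other lists, all 11 markers of enteric neurons and glia were higher (median 0.43), and all 8 tested of small intestine (median −0.95) and 7 of 8 of macrophages (median −0.65) were lower, with none called. The part of these cell types in the result was not tested.

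**Figure D2:**
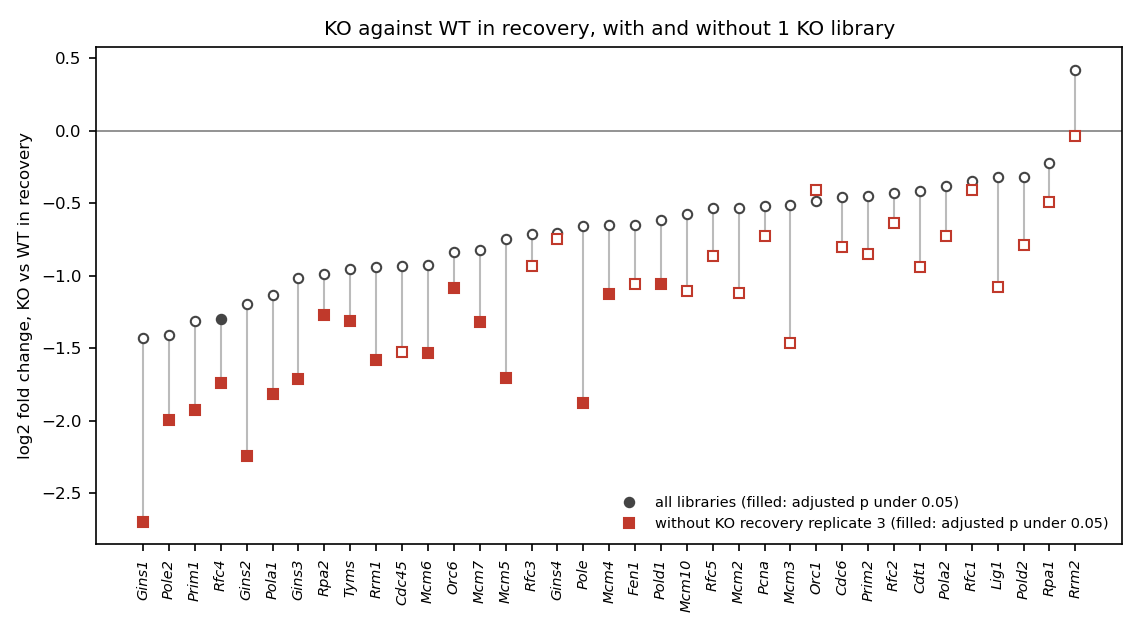
Log2 fold change of each DNA replication gene between *Cldn2*KO and WT recovery, with all libraries (circles) and without *Cldn2*KO recovery replicate 3 (squares), ordered by the first, filled where the adjusted p was under 0.05. Filled circles number 1 and filled squares 17, and *Orc1* is the gene whose square lies above its circle.

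In WT mice, replication genes lay higher in recovery than in controls, in 34 of 37 genes and by a median of 0.35 on the log2 scale (all genes tested, −0.04). *Rfc4*, *Orc6*, *Pcna* and *Orc1* rose at an adjusted p under 0.05, which is 4 of 37 or 10.8%, near the 10.0% of all genes that were called higher in this comparison. The groups did not overlap for 8 genes, all higher in recovery (21.6%, against 16.8% of all genes). *Pcna* (ENSMUSG00000027342, GRCm38 chromosome 2, 132249162 to 132253314, minus strand) stood at 92.7, 77.8 and 105 CPM in WT controls, below the 135 to 159 CPM of WT recovery, and its log2 fold change was 0.71 (SE 0.21, adjusted p = 0.0249). *Rfc4* stood at 15.9, 9.36 and 16.6 CPM in the controls and rose by 1.02 on the log2 scale (SE 0.28, adjusted p = 0.0178). *Orc6*, the smallest subunit of the origin recognition complex, stood at 17.2, 12.1 and 17.9 CPM in controls and 26.1, 37.7 and 23.7 CPM in recovery (log2 fold change 0.89, SE 0.26, adjusted p = 0.0225). *Orc1*, its largest subunit, stood at 6.25, 2.62 and 6.25 CPM in controls and at 11.8, 8.11 and 9.40 CPM after recovery (0.95, SE 0.31, adjusted p = 0.0377). The groups stood apart for each of these 4 genes. Counts of *Rfc4*, *Orc6* and *Orc1* are uncertain for the overlaps given above. *Pold1* and *Rpa1* had the largest opposite signs, with log2 fold changes of −0.09 each.

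These calls leaned on the low library among the WT controls. Without WT control replicate 2, none of the 37 genes was called, where 11.8% of all genes were called higher and 13.3% lower. The median fell to 0.15, and 27 genes were higher. Groups stood apart for 10 higher genes and 1 lower one, where 27.7% of all genes stood apart as higher and 31.1% as lower. Of the other WT libraries, leaving out control replicate 1 or recovery replicate 1 or 2 left 1 call each. In these fits, 4.26%, 8.92% and 6.09% of all genes were called higher. Without recovery replicate 1 the median was 0.22, with 27 genes higher and 10 lower. WT control replicate 2 was also the only control library without posterior Hox RNA. With a term for posterior Hox RNA in the fit, which rests on that library, 3 genes were called higher (3.83% of all genes were) and the median was 0.92. Other cells moved with this comparison. All 12 smooth muscle markers (9 called), all 8 of macrophages (7 called), all 10 of B and plasma cells (7 called), all 10 of epithelium (6 called) and all 7 of fibroblasts (3 called) were lower in WT recovery. Of 8 tested markers of small intestine, 7 were higher (3 called, median 1.63 on the log2 scale), and the list summed to 1095 to 1921 CPM in WT recovery against 54.8 to 413 CPM in WT controls. The part of these cells and of this tissue in the result was not tested.

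In *Cldn2*KO mice, replication genes lay lower in recovery than in controls in 30 of 37 cases, and the median on the log2 scale was −0.48. *Pole2*, *Prim1* and *Rfc3* fell at an adjusted p under 0.05, which is 8.11% of the genes, below the 10.0% of all genes that were called lower. The groups did not overlap for 7 lower genes (18.9%, against 20.5% of all genes) and for 1 higher gene, *Rrm2*. *Pole2* stood at 8.63, 10.7 and 9.47 CPM in *Cldn2*KO controls, and fell by 1.31 on the log2 scale (SE 0.36, adjusted p = 0.0199). Its counts are uncertain for the overlap given above. *Prim1* stood at 23.6, 22.6 and 25.7 CPM in controls, above all 3 recovery libraries, and fell by 1.23 (SE 0.35, adjusted p = 0.0224). *Rfc3*, a clamp loader subunit, stood at 23.1, 20.9 and 22.4 CPM in controls and at 10.4, 11.2 and 16.1 CPM in recovery, and fell by 0.81 (SE 0.26, adjusted p = 0.0403). *Pcna* had a log2 fold change of −0.05 here (SE 0.21), and its controls at 97.1, 111 and 116 CPM lay between the low and the high recovery libraries. Again the libraries of the group did not act alike. Without *Cldn2*KO recovery replicate 3, 21 genes were called lower where 8.99% of all genes were, the median was −1.03, and 28 genes stood apart below the controls, against 27% of all genes with 2 *Cldn2*KO libraries left. None was called without *Cldn2*KO recovery replicate 1 or 2 or control replicate 3, where 7.45%, 6.13% and 6.44% of all genes were called lower. Without control replicate 1 or 2, 1 was called, where 7.04% and 7.3% of all genes were. The median was −0.32 without recovery replicate 1 (27 genes lower), −0.30 without recovery replicate 2 (28 lower) and −0.40 without control replicate 3 (28 lower). With the posterior Hox term, none was called (0.337% of all genes were called lower) and the median turned to 0.21. In this comparison the term cannot be told apart from recovery, since all controls had posterior Hox RNA and all recovery libraries had almost none. Its size comes from WT control replicate 2, itself low in the replication genes, so no conclusion was drawn on the direction. All 12 smooth muscle markers (12 called, median −2.89), all 8 of macrophages (6 called), all 10 of B and plasma cells (3 called) and all 7 of fibroblasts (4 called) were lower in *Cldn2*KO recovery, and 10 of 11 of T and NK cells were higher (5 called). Of 8 tested small intestine markers, 6 were higher (4 called, median 3.60), with sums of 758 to 1387 CPM in recovery and 33.9 to 44.9 CPM in controls. The 6 tested crypt stem and progenitor markers were all lower (1 called, median −0.66). The part of these cells and of this tissue in the result was not tested.

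**Figure D3:**
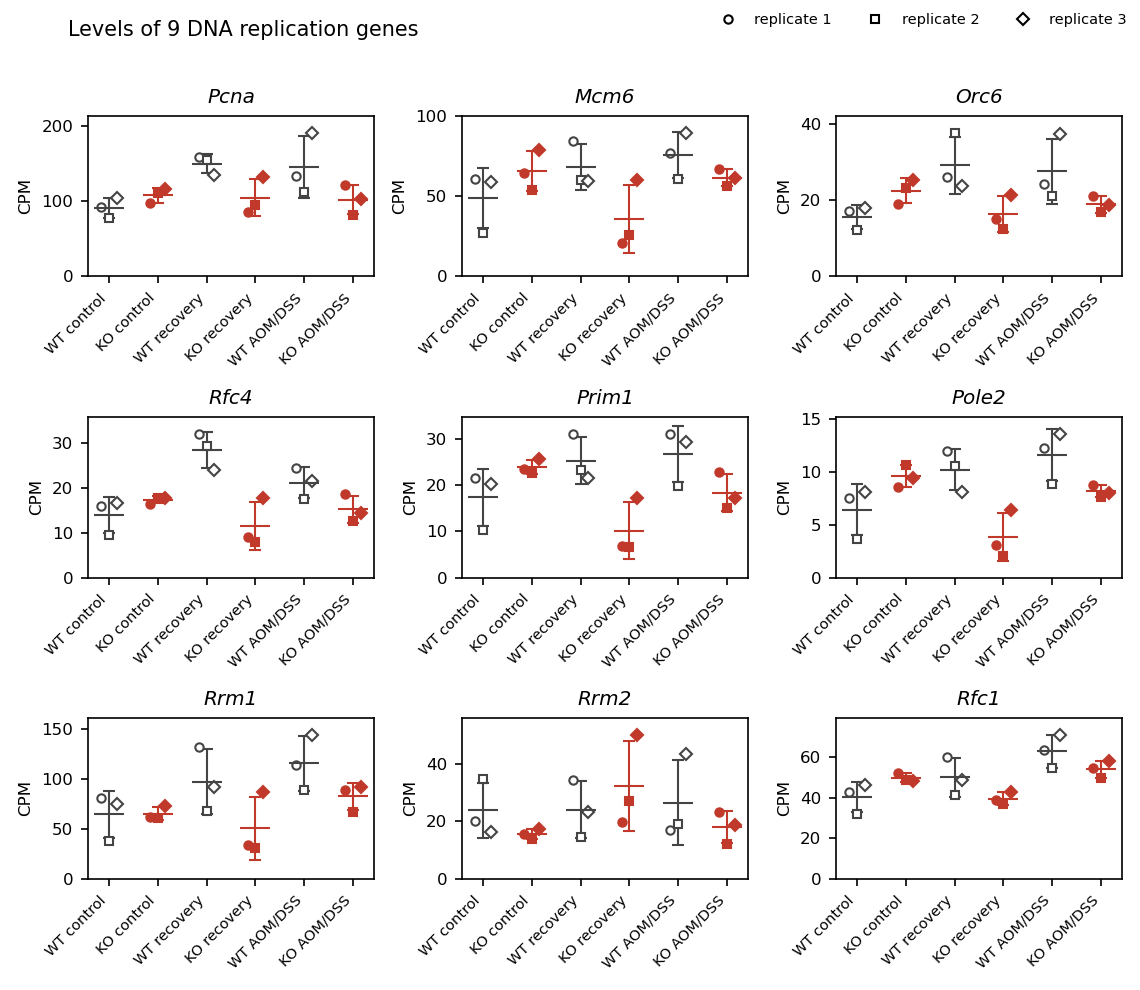
Level in CPM of 9 DNA replication genes in the 6 groups, WT in grey with open symbols and *Cldn2*KO in red with filled symbols, 1 symbol per library, with the mean (long bar) and SD of 3 libraries. For *Rfc4*, *Prim1* and *Pole2*, circle and square of *Cldn2*KO recovery lie far below the diamond, and for *Rrm2* the same diamond is the highest of all 18 libraries.

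The response to recovery was compared between genotypes by the interaction in the same fit. The *Cldn2*KO response was below the WT response for 36 of 37 genes, at a median of −0.88 on the log2 scale (all genes tested, 0.05). None of the 37 passed at an adjusted p under 0.05 in edgeR, where 0.13% of all genes did, and 13 (35.1%) were lower at an unadjusted p under 0.05, against 8.81% of all genes. The lowest adjusted p were those of *Rfc4* (difference −1.61, adjusted p = 0.0805), *Pole2* (−1.98, 0.0858), *Orc6* (−1.35, 0.0906) and *Prim1* (−1.77, 0.0952). DESeq2 called 5 genes and limma-voom 12, all with the lower response in *Cldn2*KO mice, where those tools called 2.38% and 4.65% of all genes lower. The main test called none without any single library, *Cldn2*KO recovery replicate 3 included, where the median was −1.34. The WT and *Cldn2*KO responses share no libraries, and 27 genes had a positive value in WT and a negative one in *Cldn2*KO mice.

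In WT mice, replication genes lay higher in AOM/DSS than in controls, which are the same control libraries as those set against recovery. Of the 37 log2 fold changes, 36 were positive, the median was 0.63 (all genes tested, 0.01), and the groups did not overlap for 17 genes, or 45.9%, all higher, against 14.9% of all genes. These 17 took in all 6 MCM2-7 genes, *Pcna*, *Orc1*, *Orc6*, *Gins1*, *Pola1*, *Prim2*, *Pole*, *Pole2*, *Rfc1*, *Rfc4* and *Rrm1*. Only *Rfc1*, the largest subunit of the clamp loader, passed the test, 2.70% of the genes where 3.81% of all genes were called higher. *Rfc1* (ENSMUSG00000029191, GRCm38 chromosome 5, 65261850 to 65335670, minus strand) had 42.9, 32.1 and 46.2 CPM in the WT controls, all below its 63.6, 54.5 and 71.0 CPM under AOM/DSS (log2 fold change 0.64, SE 0.16, adjusted p = 0.0270). *Pcna* reached 134, 112 and 191 CPM there (0.67, SE 0.21, adjusted p = 0.0516) and *Orc6* at 24.3, 21.1 and 37.3 CPM (0.81, SE 0.26, adjusted p = 0.0539). *Mcm6* stood at 77.0, 60.8 and 89.6 CPM, just above the controls at 60.6, 27.1 and 58.7 CPM, and *Rrm1* at 114, 88.6 and 143 CPM against 81.1, 37.3 and 74.2 CPM. *Rfc2*, another clamp loader subunit, was the single gene with a negative value (−0.20).

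The call of *Rfc1* was lost without WT control replicate 2 (median of the 37 genes 0.34) and without WT AOM/DSS replicate 3 (median 0.43), while 3 genes were called without WT AOM/DSS replicate 2, where 3.56% of all genes were called higher. With limma-voom, the median was 0.21, and 29 genes were higher and 8 lower. The count of 17 genes whose groups stood apart was the same without WT control replicate 2, where 19.3% of all genes stood apart as higher. WT AOM/DSS replicate 3, the highest library, also had the most of the crypt stem and progenitor markers (529 CPM against 58 to 319 CPM in the other 17 libraries) and the least smooth muscle (657 CPM). Smooth muscle markers summed to 4276 to 6362 CPM in WT controls and to 657 to 3335 CPM in WT AOM/DSS, and epithelial markers to 19451 to 20481 CPM and 10728 to 13038 CPM. All 6 tested crypt markers were higher in WT AOM/DSS (1 called, median 1.24 on the log2 scale). All 11 markers of enteric neurons and glia (5 called, median −1.71), all 11 of T and NK cells (1 called, median −2.03) and all 8 of macrophages (0 called, median −0.50) were lower. Of 8 tested small intestine markers, 5 were lower (3 called) and 3 higher (1 called), with a median of −2.86. The part of these shifts in tissue makeup in the result was not tested.

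In *Cldn2*KO mice, replication genes had no shared direction between AOM/DSS and control. The median was 0.06 on the log2 scale, and 21 genes were higher and 16 lower. None of the 37 passed the test in edgeR, where 0.195% of all genes were called. None passed in DESeq2 (2.15% of all genes called higher and 1.4% lower) or limma-voom (9.03% and 9.05%). None had an unadjusted p under 0.05 either, against 8.6% of all genes higher and 6.6% lower. *Pcna* stood at 121, 82.2 and 103 CPM in AOM/DSS, overlapping the controls (log2 fold change −0.08, SE 0.21, which allows a change of either sign). The groups did not overlap for 2 higher genes, *Orc1* and *Fen1*, and 2 lower ones, *Gins3* and *Tyms* (5.41% each, with the share over all genes not given here). *Orc1* at 7.18, 6.88 and 7.57 CPM lay above its controls of 6.51, 4.27 and 5.27 CPM (0.43, SE 0.31), and *Gins3* at 4.09 to 4.72 CPM lay below its controls of 5.49 to 5.77 CPM (−0.35, SE 0.36). *Fen1* had the largest value, 0.94 (SE 0.58), on very few reads.

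Under AOM/DSS, the *Cldn2*KO colon was again on the lower side. Against WT, 36 of 37 log2 fold changes were negative and the median was −0.37 (all genes tested, 0.00). None of the 37 passed in edgeR or limma-voom, where 0.0059% of all genes were called in each. None passed in DESeq2 either, where 0.0118% of all genes were called higher and 0.0118% lower. At an unadjusted p under 0.05, 2 genes (5.41%) were lower, against 2.28% of all genes. The groups did not overlap for 4 genes, *Mcm5*, *Orc6*, *Pole* and *Pole2*, all lower in *Cldn2*KO mice (10.8%, against 6.38% of all genes). *Pole*, the catalytic subunit of polymerase epsilon, measured 11.4, 9.89 and 16.03 CPM in the WT libraries and 8.99, 6.33 and 9.86 CPM in the *Cldn2*KO ones, so that the groups all but touched (log2 fold change −0.57, SE 0.50). *Orc6* stood at 21.1, 16.8 and 18.8 CPM in *Cldn2*KO AOM/DSS (−0.54, SE 0.25), and *Pole2* at 8.80, 7.66 and 8.07 CPM (−0.50, SE 0.35). *Pcna* had a log2 fold change of −0.51 (SE 0.21) with overlapping libraries, and *Pold2*, the single gene with a positive value, one of 0.04 (SE 0.28). Without WT AOM/DSS replicate 3, the median was −0.22 and 31 genes were lower, and with limma-voom it was −0.17 with 34 lower. Markers of other cells moved with this comparison. All 12 smooth muscle markers (median log2 fold change 1.03) and all 11 of enteric neurons and glia (0.93) were higher in *Cldn2*KO mice, and all 11 of T and NK cells (−1.11) and all 10 of B and plasma cells (−1.32) were lower, with none called. Smooth muscle markers summed to 2709 to 6606 CPM in *Cldn2*KO and 657 to 3335 CPM in WT AOM/DSS. Epithelial markers summed to 13036 to 16922 CPM in *Cldn2*KO and 10728 to 13038 CPM in WT AOM/DSS. The crypt stem and progenitor markers overlapped, at 185 to 319 CPM and 176 to 529 CPM. The part of these cell types in the result was not tested. *Xist* was high in 2 of the 3 *Cldn2*KO libraries and in no WT library, and with a term for it in the fit the median was −0.40, with 36 of 37 genes lower and none called. The interaction, which compares the AOM/DSS response between genotypes, had a median of −0.51 with 32 of 37 genes on the lower side. This direction was weak by other settings, at −0.08 with 22 genes lower and 15 higher in limma-voom and −0.27 without WT control replicate 2. None of the 37 passed in edgeR, where 0.0118% of all genes did. None passed in DESeq2 (0.455% of all genes called higher and 0.059% lower) or limma-voom (1.4% and 0.301%). At an unadjusted p under 0.05, 4 (10.8%, against 3.02% of all genes) were lower, led by *Orc6* (−1.06, adjusted p = 0.503).

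In untreated mice, no replication gene differed between genotypes beyond the test. Between *Cldn2*KO and WT controls, 24 genes were higher and 13 lower, and the median log2 fold change was 0.11. None of the 37 passed in edgeR, where 1.17% of all genes were called. None passed in DESeq2 (0.614% of all genes called higher and 3.45% lower) or limma-voom (6.08% and 8.84%). None had an unadjusted p under 0.05 either, against 4.25% of all genes higher and 8.87% lower. The groups did not overlap for 7 genes, all higher in *Cldn2*KO controls (18.9%, against 11.6% of all genes), among them *Pole2* (log2 fold change 0.57, SE 0.36), *Cdc6* (0.54, SE 0.33) and *Orc6* (0.52, SE 0.26). *Cdc6*, the loader of the helicase, was measured at 5.47, 3.80 and 4.99 CPM with claudin-2 and at 7.49, 5.88 and 7.37 CPM without it. *Rrm2* (−0.60, SE 0.43) and *Fen1* (−0.58, SE 0.60) had the largest opposite signs. The sign of the median was not stable: without WT control replicate 2 it was −0.13 and without *Cldn2*KO control replicate 3 −0.05. Without the former, 5 genes stood apart below WT beside the 7 above it, against 19.1% and 19.6% of all genes. All 11 T and NK cell markers (4 called, median log2 fold change −3.11) and all 10 of B and plasma cells (3 called) were lower in *Cldn2*KO controls, and all 12 of smooth muscle were higher (none called), and their part in these values was not tested.

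**Figure D4:**
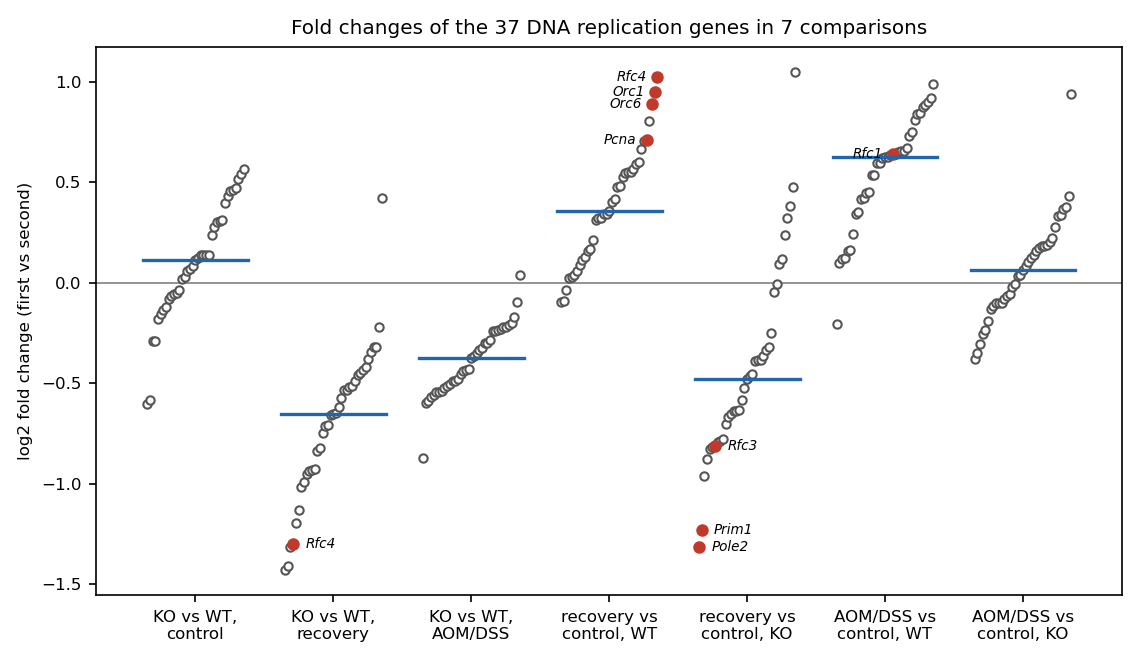
Log2 fold changes of the 37 DNA replication genes (1 circle per gene, sorted within each column) in 7 comparisons, with the median as a blue bar and genes at an adjusted p under 0.05 filled and named. Most circles lie below 0 in the *Cldn2*KO against WT comparisons of recovery and AOM/DSS and above 0 in the WT responses, and few are filled in any column.

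A few genes did not follow the others. Across the 18 libraries, Pearson's r between each gene and the median of the other 36 on the log2 scale was over 0.8 for 27 genes and highest for *Cdc45* (0.97), *Mcm7* (0.97) and *Gins2* (0.96). The points share library and scaling, the values are a description, and no test was made. It was lowest for *Rrm2* (0.14), *Rfc2* (0.24), *Pola2* (0.39) and *Orc1* (0.43). *Rrm2*, the small subunit of ribonucleotide reductase, stood at 34.8 CPM in WT control replicate 2, above the 20.2 and 16.4 CPM of the other WT controls, whereas that library was the lowest of the WT controls for 34 of the 37 genes. *Rfc2* (49.8 CPM against 36.9 and 30.5 CPM) and *Pola2* (19.6 CPM against 15.2 and 13.4 CPM) were the others for which it was the highest. In *Cldn2*KO recovery, *Rrm2* stood at 19.9, 27.2 and 50.1 CPM, above the *Cldn2*KO controls at 15.7, 13.98 and 17.3 CPM (log2 fold change 1.05, SE 0.43, adjusted p = 0.105). Its partner *Rrm1* stood at 33.9, 30.9 and 86.9 CPM there and at 61.7, 60.9 and 72.8 CPM in *Cldn2*KO controls, so the subunits of the enzyme differed in direction in the low libraries. *Rrm2* was also the single gene whose value was positive in *Cldn2*KO against WT recovery (0.42, SE 0.43), and it turned to −0.04 without *Cldn2*KO recovery replicate 3.

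Further genes of the pathway were described from a list of 48 partners, comprising 13 for origin licensing and firing, 18 for fork and small subunits, 7 for copying chromatin and 10 for nucleotide supply. Their median had the same sign as that of the 37 genes in each of the 7 comparisons, several of which share libraries. In WT recovery against control, 10 partners (20.8%) were called higher, where 10.0% of all genes were, and none lower, and the median over the 48 was 0.25 on the log2 scale. Without WT control replicate 2, 8 were called higher (16.7%, against 11.8% of all genes) and 1 lower (2.08%, against 13.3%), and the median was 0.08. Without WT control replicate 1, 6 were called higher (12.5%, against 4.26% of all genes). *Orc5* rose by 1.08 (adjusted p = 0.000754), *Rnaseh2b*, a subunit of RNase H2, by 1.17 (adjusted p = 0.00506) and *Nasp*, a histone chaperone, by 0.94 (adjusted p = 0.00561). *Orc2*, *Orc3* and *Orc4* were also among the called genes, so 4 subunits of the origin recognition complex beyond *Orc1* and *Orc6* rose. These 4 were also called without WT control replicate 2, but *Orc2* and *Orc4* were not called without WT control replicate 1 or with only the groups compared, nor *Orc3* and *Orc4* with the posterior Hox term. In *Cldn2*KO recovery against control, *Mcmbp*, a binding partner of MCM proteins (−0.37, adjusted p = 0.0404), and *Dscc1*, a subunit of an alternative clamp loader (−1.30, adjusted p = 0.0336), fell. These were 4.17% of the partners, below the 10.0% of all genes. Neither was called without any one of the *Cldn2*KO control libraries or of *Cldn2*KO recovery replicates 1 and 2. Without recovery replicate 3, 15 partners were called lower (31.2%, against 8.99% of all genes). Between *Cldn2*KO and WT recovery, *Gmnn*, the inhibitor of CDT1, was the single partner called (2.08%, against 0.425% of all genes called lower). It was lower by 0.85 on the log2 scale (adjusted p = 0.0335), and 41 of 48 partners were lower. *Gmnn* was not called without WT recovery replicate 2 or 3 or *Cldn2*KO recovery replicate 2. Nor was it called without the low-count filter, with only the groups compared or with the *Xist* term. Without *Cldn2*KO recovery replicate 3, 16 partners were called lower (33.3%, against 1.99% of all genes). In WT AOM/DSS against control, 4 partners (8.33%, against 3.81% of all genes) rose, among them *Orc5* (0.80, adjusted p = 0.0116), *Orc2* (0.88, adjusted p = 0.0132) and *Ctps*, which makes CTP (1.07, adjusted p = 0.0206). Only *Orc5* (2.08%) was called without WT control replicate 2, without WT AOM/DSS replicate 3 or with the posterior Hox term. In these fits, 0.375%, 0.248% and 0.425% of all genes were called higher. With only the groups compared, none of the 48 and 0% of all genes were called higher.

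The 19 regulators of S-phase entry (E2F factors, cyclins, their kinases and inhibitors) did not share one direction, with medians between −0.16 and 0.23 over the 7 comparisons. *Cdkn1a*, the cyclin-dependent kinase inhibitor p21, fell by 1.16 in WT recovery (adjusted p = 0.00217) and by 1.18 in WT AOM/DSS (adjusted p = 0.00824) on the log2 scale, and these comparisons share the WT controls. *Cdc25a*, a phosphatase that activates cyclin-dependent kinases, rose by 1.03 in *Cldn2*KO recovery (adjusted p = 0.00313) and had a log2 fold change of −0.70 in WT AOM/DSS (adjusted p = 0.0424). *Myc* rose by 1.57 in WT AOM/DSS (adjusted p = 0.0249). No other regulator was called in the 7 comparisons. As a second comparison list, 18 genes of mitosis had a median of −1.07 on the log2 scale between *Cldn2*KO and WT mice in recovery and of −0.23 in AOM/DSS, and none was called in any of the 7 comparisons. In the controls, 18 of 18 mitosis genes were lower in *Cldn2*KO mice (median −0.76) where 24 of the 37 replication genes were higher, and in *Cldn2*KO AOM/DSS against control, 18 of 18 were higher (median 0.70) where the replication genes had a median of 0.06. The difference between the lists was not tested.

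The promoters of the genes were read from RefSeq (GRCm38.p6), as 250 bases before to 50 bases after each annotated start. A window was found for 30 of the 37 genes, and *Gins1*, *Gins2*, *Gins4*, *Mcm4*, *Pole*, *Prim2* and *Rfc2* were not matched. An E2F core (TTTGGCGC, TTTCCCGC, TTTGCCGC or TTTCGCGC on either strand) stood in the window of 13 of 30 genes, or 43.3%, against 2.60% of all 27025 genes with a window. Matches on opposite strands can overlap. By role, 4 of the 5 MCM2-7 genes with a window held a match, as did *Cdc6*, *Cdt1* and *Orc1* of the licensing group, whereas *Pcna*, *Rfc4*, *Prim1*, *Rrm1* and *Rrm2* held none of these letters in this window. A CCAAT box on either strand stood in 66.7% of the genes against 41.1% of all, and the cell cycle homology letters TTTGAA in 16.7% against 20.2%. The 3 stretches of 150 bases shown end at the annotated start and come from the genes whose values by library are given by rule. Among those genes, their windows held the most matches, with ties going to called genes. *Mcm3*, *Mcm5* and *Mcm7*, which are outside that rule, held 2 matches each and are not shown. They read 5′ to 3′ on the gene's strand, with E2F core matches in capitals. *Mcm6* lies at chr1:128359706-128359855 (minus strand), *Rfc3* at chr5:151651209-151651358 (minus strand) and *Orc1* at chr4:108579304-108579453 (plus strand).
Mcm6: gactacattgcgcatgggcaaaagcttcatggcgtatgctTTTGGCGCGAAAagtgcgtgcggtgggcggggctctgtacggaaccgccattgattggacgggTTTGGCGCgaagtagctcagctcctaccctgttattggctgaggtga
Rfc3: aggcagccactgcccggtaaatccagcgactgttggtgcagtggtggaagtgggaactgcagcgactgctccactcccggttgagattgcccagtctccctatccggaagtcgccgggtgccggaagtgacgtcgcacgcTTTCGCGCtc
Orc1: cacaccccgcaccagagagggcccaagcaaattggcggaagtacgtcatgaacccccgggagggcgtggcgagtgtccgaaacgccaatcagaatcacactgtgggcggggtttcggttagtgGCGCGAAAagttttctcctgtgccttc
In *Mcm6*, the matches begin 110, 106 and 47 bases before the start, and the first pair overlap. The match shown in *Rfc3* begins 10 bases before the start, and a second one begins right after the stretch. The match in *Orc1* begins 27 bases before the start. The presence of these letters is a description of the sequence only. Of the 8 genes called in any comparison, *Orc1*, *Rfc3* and *Pole2* held a match, and *Orc6*, *Pcna*, *Prim1*, *Rfc1* and *Rfc4* did not.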

How the data were processed

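RNA-seq libraries were compared from 6 groups of 3 (genotype by treatment, from the labels). Deposited were raw, unscaled counts of each gene, in 36 columns for 18 libraries on 2 lanes. The authors counted reads with featureCounts (Subread) on GRCm38. Per the study's methods reads were aligned with TopHat2, whereas the submitters' notes name HISAT2, and versions and the strand setting are not given in the sources used here. Symbols were matched for 47224 of 47729 genes. Lanes were summed (chi-square per degree of freedom between lanes 1.08 to 1.18, and at least 11.9 between replicates). edgeR 4.0.16 in R 4.3.3 was run with filterByExpr, TMM scaling and a robust quasi-likelihood fit of 1 mean per group to all 18 libraries, with Benjamini-Hochberg adjustment over 16937 genes and a call at an adjusted p under 0.05. Alternatives used DESeq2 1.42.0, limma 3.58.1 and the other settings of the closing section. The code was tested on simulated counts.

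The genes and gene lists were chosen with earlier results of these data known. Values by library are given, in the comparisons where they are described, for *Pcna*, the most abundant gene per kb of each role, up to 4 called genes per comparison by adjusted p, up to 2 genes of opposite sign and, where none was called, the 3 largest changes among genes whose groups did not overlap. Genes named beyond this were singled out after their values were seen. Of the other lists, up to 3 called genes per direction are named. Counts of groups without overlap were repeated without WT control replicate 2 and *Cldn2*KO recovery replicate 3, a choice made after seeing the data.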

Additional observations from a re-analysis of the deposited data

How the results depend on the processing

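The number of the 37 genes called stayed at 0 under every alternative for *Cldn2*KO against WT in controls and in AOM/DSS, for AOM/DSS against control in *Cldn2*KO mice and for the AOM/DSS interaction. With limma-voom, 6.08% of all genes were called higher and 8.84% lower between the controls, and 0% and 0.0059% between genotypes in AOM/DSS. It called 9.03% and 9.05% for AOM/DSS against control in *Cldn2*KO mice, and 1.4% and 0.301% for the AOM/DSS interaction. The number of the 37 genes called changed elsewhere, and the cause was not tested unless an alternative had fewer libraries. In *Cldn2*KO against WT recovery (1 gene), it was 0 without the low-count filter (0.118% of all genes called lower), with only the groups compared (0.144%) and with an *Xist* term (0.171%). It was 5 with a posterior Hox term (1.55%), 8 with DESeq2 (4.69%), 21 with limma-voom (5.74%) and 0 to 17 with 1 library left out. In WT recovery against control (4 genes), it was 2 with only the groups compared (4.41% of all genes called higher) or an *Xist* term (5.77%), 8 with limma-voom (21.6% of the 37, near the 23.1% of all genes) and 0 to 4 with 1 library left out. In *Cldn2*KO recovery against control (3 genes), it was 7 with upper-quartile scaling (11.8% of all genes called lower), 6 with DESeq2 (12.3%) and 22 with limma-voom (16.8%), of which 1 was higher. It was 0 with the posterior Hox term (0.337%) or the *Xist* term (6.34%) and 0 to 21 with 1 library left out. In WT AOM/DSS against control (1 gene), it was 2 with upper-quartile scaling (3.96% of all genes called higher) and 4 with DESeq2 (7.04%). It was 0 with only the groups compared (0%) or the Hox term (0.425%) and 0 to 3 with 1 library left out. In the recovery interaction (0 genes), DESeq2 gave 5 (2.38% of all genes called lower), limma-voom 12 (4.65%) and each left-out library 0. Where an arm was left with 2 libraries, the spread was pooled over all groups.

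Values near 0 changed sign. The posterior Hox term rests on WT control replicate 2. With it, *Pold1* (0.50) and *Rpa1* (0.13) turned positive in WT recovery, *Pcna* in *Cldn2*KO recovery (0.30) and *Rfc2* in WT AOM/DSS (0.0082). With the *Xist* term, *Pold2* turned to −0.083 in *Cldn2*KO against WT AOM/DSS and to −0.00349 in the interaction. With 1 library left out, values ran from −0.038 to 0.78 for *Rrm2* in *Cldn2*KO against WT recovery, from −0.094 to 0.13 for *Pold2* in *Cldn2*KO against WT AOM/DSS and from −0.024 to 0.29 in the interaction, and from −0.034 to 0.78 for *Fen1* in that interaction. They ran from −0.34 to 0.10 for *Pold1* and from −0.23 to 0.046 for *Rpa1* in WT recovery, and for *Pcna* from −0.25 to 0.077 in *Cldn2*KO recovery and from −0.21 to 0.084 in *Cldn2*KO AOM/DSS. The median of the 37 genes between the controls was 0.11, and −0.10 with limma-voom. The control titles share numbers 1 to 3 between genotypes. With the replicate block, 0 genes were called between the controls (median 0.16). Deviations of same-numbered controls correlated at 0.157, 0.00234 and 0.0794, so the numbers were not taken as pairs. Depth limits *Fen1*, with at most 39 reads per library.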
